A study of Mus musculus with 12 samples.

Results

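BAF chromatin remodeling complexes are described here through 10 of their subunit genes, *Smarca2*, *Smarca4*, *Arid1a*, *Arid1b*, *Smarcb1*, *Smarce1*, *Smarcc1*, *Smarcc2*, *Actl6a* and *Actl6b*. They were chosen by name as subunits of the progenitor and neuronal forms of the complex. No measured value entered that rule, but the choice was made with earlier results of these data known. All 10 were found by Ensembl identifier among the 18911 genes of the count table. RNA-Seq was performed on mouse neural progenitor cells (mNPCs) grown from the hippocampus of newborn pups, with 4 genotypes and 3 libraries each. *Kmt2a+/+* cells, called wild-type below, carry both intact alleles. *Kmt2a+/LSL* cells, called LSL, carry 1 allele with a lox-STOP-lox (LSL) cassette in intron 1, which blocks the full-length transcript of the histone methyltransferase gene *Kmt2a*. Nes-Cre+/- *Kmt2a+/LSL* cells, called Cre-LSL, carry the same allele together with nestin-Cre, a recombinase driven by a nestin promoter that removes the cassette in the nervous system, and Nes-Cre+/- *Kmt2a+/+* cells, called Cre-control, carry nestin-Cre alone. The LSL allele was made on a C57BL/6J background. The labels do not say whether the 3 cultures of a genotype came from separate pups or litters, so the p-values measure the spread between these cultures.

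BAF complexes are the mammalian SWI/SNF remodelers. An ATPase, BRG1 (encoded by *Smarca4*) or BRM (*Smarca2*), slides or ejects nucleosomes, while a scaffold of *Smarcc1*, *Smarcc2*, *Smarce1* and *Smarcb1* products holds the complex together and an ARID protein, from *Arid1a* or *Arid1b*, gives it its canonical form. During neurogenesis the complex changes composition, and the progenitor actin-like subunit encoded by *Actl6a* gives way to the neuronal one encoded by *Actl6b* as cells leave the cell cycle. In postmitotic neurons *Actl6a* is repressed by the microRNAs miR-9-3p and miR-124 through its 3′UTR, and in progenitors the repressor REST keeps those microRNAs low.

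The microRNA and the sites it could pair with are shown because they belong to the *Actl6a* to *Actl6b* exchange that separates progenitor from neuronal BAF. The mature miR-9-3p of RefSeq is printed with its seed, bases 2 to 8, in capitals, and the sites are the letters AGCTTTA in capitals on the transcript strand with flanking 3′UTR bases, all from the GRCm38 (GENCODE M21) transcripts.
miR-9-3p: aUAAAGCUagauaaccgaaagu
*Actl6a*, chr3:32726625-32726654, + strand: cacctcaacgtctgtAGCTTTAgtacactc
*Smarca2*, chr19:26777487-26777516, + strand: ttgtcatctagaactAGCTTTAgggtagtg
*Smarce1*, chr11:99209742-99209771, - strand: gctcaccaaagccatAGCTTTAaacccttc
*Smarcc1*, chr9:110238598-110238627, + strand: gatagcaaagagcacAGCTTTAcaacaagc
*Smarcc1*, chr9:110239426-110239455, + strand: ttatgtgtattttaaAGCTTTAtgtatgag
The site in *Actl6a* starts at base 38 of a 3′UTR of 371 bases. Among 2176 genes with a 3′UTR within 25% of that length, 2.57% held the same letters. *Smarcc1* held 2 sites in 2396 bases, where 19.4% of genes of like length held at least 1, and *Smarca2* and *Smarce1* held 1 each, where the shares were 7.33% and 7.85%. The other 6 members, including *Actl6b* with 196 bases, held none. A match of 7 letters is a description of the sequence. MicroRNAs were not measured in these poly(A) libraries, and no miR-124 sequence is shown.

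The promoters of the exchanging pair are shown because KMT2A binds CG-rich DNA through its CXXC domain, and this pair marks the change from progenitor to neuronal BAF. Each line gives the 250 bases before the RefSeq start (GRCm38.p6) with every CG in capitals.
*Actl6a*, chr3:32708296-32708545, + strand: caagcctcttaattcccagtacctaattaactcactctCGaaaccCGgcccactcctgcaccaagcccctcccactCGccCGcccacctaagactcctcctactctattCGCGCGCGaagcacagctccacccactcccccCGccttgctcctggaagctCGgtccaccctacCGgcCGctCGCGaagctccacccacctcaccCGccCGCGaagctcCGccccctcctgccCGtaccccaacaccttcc
*Actl6b*, chr5:137553296-137553545, + strand: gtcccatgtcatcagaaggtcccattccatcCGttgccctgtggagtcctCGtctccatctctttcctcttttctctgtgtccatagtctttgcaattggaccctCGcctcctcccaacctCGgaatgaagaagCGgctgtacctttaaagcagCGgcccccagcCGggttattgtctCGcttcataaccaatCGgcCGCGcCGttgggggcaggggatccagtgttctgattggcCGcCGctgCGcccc
The window of *Actl6a* held 19 CG and that of *Actl6b* 15, against a median of 6 over 32851 promoter windows. As many or more were held by 19.7% and 27.3% of all windows. The 9 members with an entry held between 15 and 40, the latter in *Smarcc2*, and *Smarce1* had none in the table. The barely detected *Actl6b* had a window above the median of all promoters.

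Library totals lay between 18280008 and 28596919 estimated counts. *Kmt2a* read 281 to 300.3 CPM (counts relative to the TMM-scaled library size) in wild-type, 166 to 167 in LSL, 283 to 310.0 in Cre-control and 259 to 284 in Cre-LSL. All 3 LSL libraries lay below every other library for *Kmt2a*, and the Cre-LSL libraries did not. Summed neural progenitor markers (8 of 8 listed genes, *Nes* and *Sox2* among them) reached 6318 to 13096 CPM, whereas microglial markers (5 of 6 listed) stayed at or below 1.73 CPM, endothelial markers (3 of 4) at or below 3.15 and fibroblast markers (5 of 5) at or below 2.46. The summed neuronal, astrocyte and oligodendrocyte-lineage markers read 1048 to 1967, 1160 to 3281 and 1254 to 5649 CPM. Most of the neuronal sum was *Map2* (980 to 1874 CPM), while *Tubb3* averaged 18.9, *Snap25* 6.18 and *Stmn2* 0.084, and most of the oligodendrocyte-lineage sum was *Olig1* (mean 3004) and *Olig2* (859), while *Sox10* averaged 4.97 and *Mbp* 1.61. Wild-type replicate 1 stood apart. It was the highest or lowest of the 12 libraries at 73.2% of all tested genes, held the lowest oligodendrocyte-lineage and astrocyte sums and the highest neuronal and neural progenitor sums, and its deviations ran with the GC content of the transcripts (Spearman's rho −0.77 across 12375 genes, which are not independent). Such a relation to GC content was not particular to that library. In wild-type, rho was 0.79 in replicate 3 and 0.47 in replicate 2. It was 0.59 in LSL replicate 3, −0.58 in Cre-LSL replicate 1 and 0.51 in Cre-LSL replicate 2. With wild-type replicate 1 left out, both remaining wild-type libraries ran with GC content in the opposite direction, so those values are not free of this relation. Over the 12 libraries *Fabp7* (mean 3891 CPM) and *Vim* (2116) had the highest means of the progenitor markers, while *Nes* averaged 521 and *Sox2* 333. In wild-type replicate 1 the progenitor sum likewise came mostly from *Fabp7* (8960 CPM) and *Vim* (2864). That library was the lowest for the progenitor markers *Sox2* (226), *Notch1* (359) and *Hes5* (2.14). Comparisons of the members with wild-type are therefore given below with and without it.

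All members but 1 were well expressed in every library and *Actl6b* was barely detected. Levels of different genes were compared as CPM per kilobase, over the median length of the protein-coding transcripts. On that scale the mean of 12 libraries was 126 ± 14.5 (SD) for *Smarca2*, 71.3 ± 7.43 for *Smarcc1*, 70.8 ± 11.9 for *Smarca4* and 69.8 ± 9.23 for *Smarcb1*. *Smarcc2* followed at 57.6 ± 8.69, *Actl6a* at 51.8 ± 8.79, *Smarce1* at 49.99 ± 5.47 and *Arid1a* at 35.7 ± 4.37. *Arid1b* was far lower at 2.77 ± 1.31 CPM per kilobase, and *Actl6b* lowest at 1.00 ± 0.58. Ranges of neighbors overlapped everywhere in that order except between *Smarca2* and *Smarcc1* and between *Arid1a* and *Arid1b*.

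The order depended on which length a gene was given. *Smarca2* has 46 annotated transcripts with a median coding-transcript length of 834 bases and a longest one of 5921. Over the longest transcript *Smarca2* fell from the first to the seventh place, at 17.8 CPM per kilobase, and *Smarca4* led with 65.3, followed by *Smarcc2* with 54.1 and *Smarce1* with 46.8. *Smarcc1* (33.9), *Arid1a* (31.9), *Actl6a* (23.8) and *Smarcb1* (15.4) lay between, and *Arid1b* (2.10) and *Actl6b* (0.16) kept the last places. Under either length *Arid1b* was below each of the 8 members above it in all 12 libraries.

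**Figure D1:**
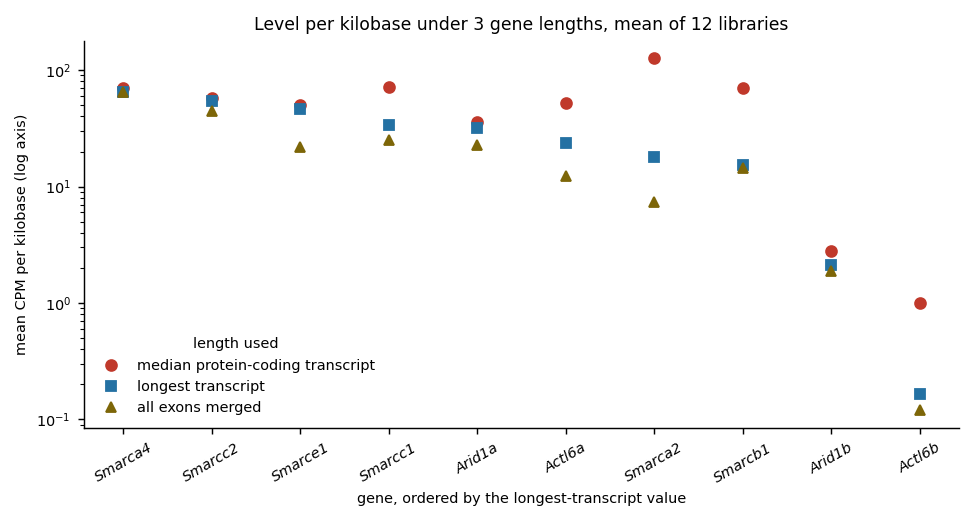
Mean level of each subunit gene over 12 libraries in CPM per kilobase (log axis) when the gene length is the median protein-coding transcript (circles), the longest transcript (squares) or all exons merged (triangles). *Smarca2* spans 126 to 7.38 with the length used, while *Arid1b* and *Actl6b* stay at the bottom under all 3.

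The ATPase genes did not separate the genotypes. *Smarca4* (chr9:21616169-21704230) encodes BRG1, the main ATPase of progenitor cells. It measured 261, 397 and 556 CPM in wild-type, 450.2, 415 and 436 in LSL, 449, 412 and 413 in Cre-control, and 338, 417 and 449.9 in Cre-LSL. Its lowest and its highest value of the whole series both came from wild-type, and the other 3 genotypes lay between them. *Smarca2* (chr19:26605050-26778322), which encodes BRM, measured 97.7, 127 and 114 CPM in wild-type, 82.9, 106 and 113 in LSL, 102, 105 and 95.2 in Cre-control, and 92.4, 117 and 112 in Cre-LSL. All 4 genotypes overlapped, and the highest library exceeded the lowest 1.53-fold.

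The ARID subunit genes differed in how far their libraries spread. *Arid1a* (chr4:133679008-133756769), whose product defines canonical BAF, measured 205, 289 and 333 CPM in wild-type and 256, 243 and 259 in LSL. It measured 276, 259.9 and 269 in Cre-control and 223, 269 and 255 in Cre-LSL. *Arid1b* (chr17:4994332-5347656), its paralog and a gene mutated in Coffin-Siris syndrome, measured 50.3, 17.1 and 10.7 CPM in wild-type, 16.9, 21.4 and 17.0 in LSL, 17.1, 21.6 and 21.5 in Cre-control, and 34.6, 19.9 and 37.9 in Cre-LSL. The 3 high libraries were wild-type replicate 1 and Cre-LSL replicates 1 and 3, while the other 9 lay between 10.7 and 21.6. The span of *Arid1b* from lowest to highest was 4.71-fold, the widest among the 9 well-expressed members. Without wild-type replicate 1 its highest value was 37.9 CPM.

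Among the core scaffold subunits *Smarcc1* and *Smarce1* varied least over the series. *Smarcc1* (chr9:110117708-110240178) measured 165 to 214 CPM in wild-type, 186 to 226 in LSL, 175 to 209 in Cre-control and 198 to 229 in Cre-LSL, a span of 1.39-fold, against 1.44-fold for *Smarce1*. *Smarcc2* (chr10:128459248-128490482), its paralog, measured 168, 303 and 267 CPM in wild-type, 228, 273 and 253 in LSL, 265, 258 and 261 in Cre-control, and 192, 268 and 228 in Cre-LSL. Its 2 lowest libraries were replicate 1 of wild-type and of Cre-LSL. *Smarcb1* (chr10:75896769-75921617), a tumor suppressor of rhabdoid tumors, had a mean of 114 ± 33.4 CPM in wild-type, 114 ± 2.01 in LSL, 112 ± 8.21 in Cre-control and 117 ± 7.58 in Cre-LSL (SD, n = 3). The means of *Smarcb1* differed by less than any of the SDs except that of LSL. *Smarce1* (chr11:99209047-99231017) had means of 157 ± 28.5, 144 ± 11.5, 144 ± 8.77 and 139 ± 11.4 CPM in the same order, and of its transcript words of 31 bases 16.2% also occur in other genes, most of all *Gm8494*, so its counts are less certain.

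Of the actin-like pair, the progenitor form was the one well expressed. *Actl6a* (chr3:32706298-32726973) measured 67.9, 39.0 and 53.2 CPM in wild-type, 51.1, 44.9 and 44.5 in LSL, 53.5, 39.7 and 39.2 in Cre-control, and 47.7, 44.8 and 48.2 in Cre-LSL. *Actl6a* overlaps *Mrpl47* on the opposite strand and shares 11.9% of its words of 31 bases, mostly with that gene, and the counting does not state the use of strand. *Actl6b* (chr5:137553517-137569582) had 1, 18 and 26 estimated counts in wild-type, 4, 16 and 17 in LSL, 9, 18 and 16 in Cre-control, and 0, 16 and 12 in Cre-LSL. The lowest library of each genotype was its replicate 1. The count of 0 allows up to 0.149 CPM at that depth (3 counts, counting error only). At 0 to 0.89 CPM a change of *Actl6b* between genotypes was not detectable at this depth. In bulk RNA, a few neurons among progenitors and a low level in every cell cannot be told apart.

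**Figure D2:**
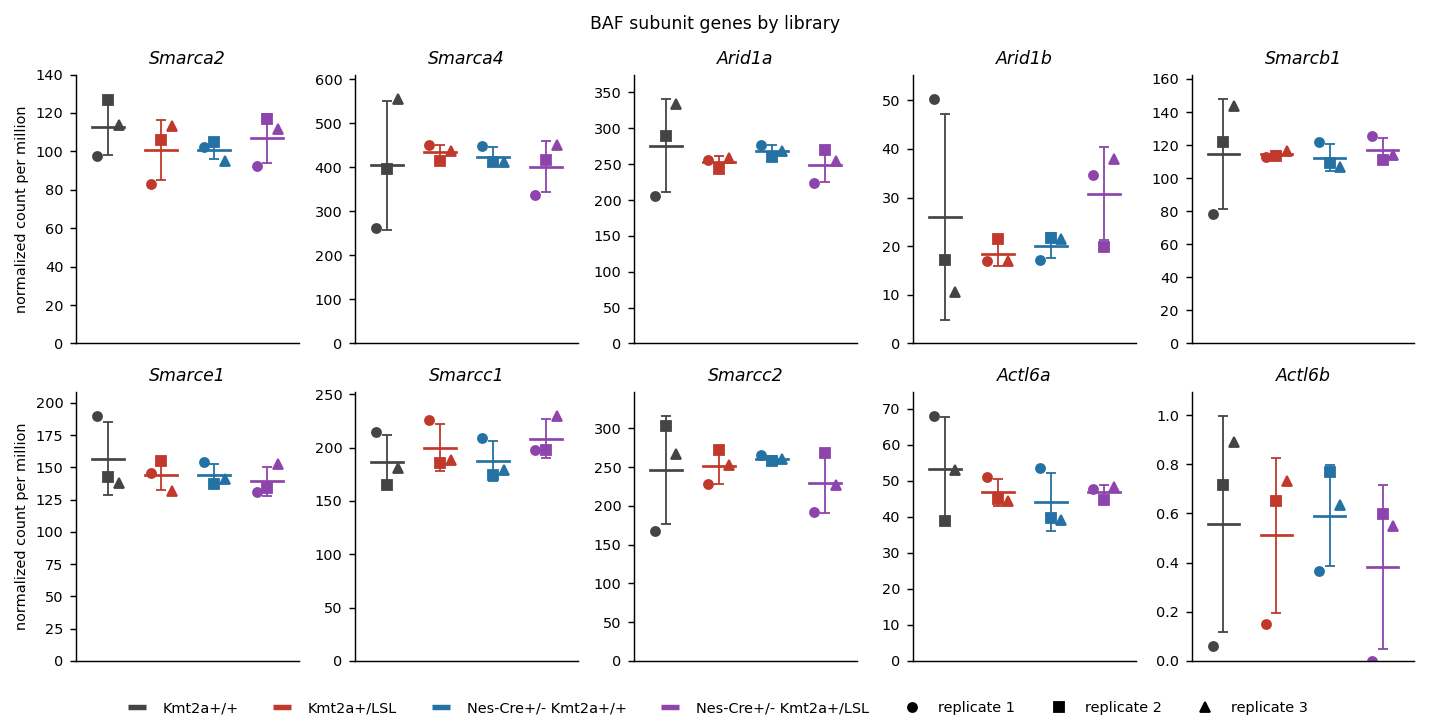
Normalized CPM of the 10 BAF subunit genes, with each panel starting at 0. Symbols are libraries (replicates 1 to 3), horizontal lines the means and bars the SD of 3 libraries, and colors the 4 genotypes. The 4 genotypes overlap in every panel, and the SD is widest in wild-type for every gene but *Smarca2*, where it is widest in LSL. Wild-type replicate 1 is the highest or the lowest library of the series for 7 of the 10 genes.

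Ratios between paralogs fill in what a fold change of one gene does not show, since both members of a pair come from the same library. They are given over the longest transcript, with the median coding transcript beside it. *Smarca2* stood below *Smarca4* in all 12 libraries over the longest transcript, with a mean log2 ratio of −1.86 ± 0.27 (SD, n = 12) and a 2.49- to 5.04-fold excess of *Smarca4*. Over the median coding transcript the mean was 0.85, so the direction of this pair rests on the length. *Arid1b* stood below *Arid1a* under either length, at −4.04 ± 0.77 and −3.80. Its per-library excess of *Arid1a* ran from 5.65-fold in wild-type replicate 1 to 43.2-fold in wild-type replicate 3. *Smarcc2* to *Smarcc1* had 0.67 ± 0.35 over the longest and −0.32 over the median transcript. *Actl6b* to *Actl6a* averaged −7.33 ± 1.40 over the 11 libraries with a count, and −5.85 over the median transcript.

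By genotype, the *Arid1b* to *Arid1a* log2 ratio over the longest transcript read −2.50, −4.54 and −5.43 in wild-type and averaged −4.25 ± 0.24 in LSL, −4.22 ± 0.23 in Cre-control and −3.53 ± 0.60 in Cre-LSL (SD, n = 3). The Cre-LSL libraries read −3.16, −4.22 and −3.22, and the library at −4.22 fell within the range of LSL and of Cre-control. The *Smarca2* to *Smarca4* ratio averaged −1.68 ± 0.45, −2.01 ± 0.28, −1.97 ± 0.089 and −1.80 ± 0.093 in the same order of genotypes, with overlapping libraries. The *Smarcc2* to *Smarcc1* ratio averaged 0.70 ± 0.64, 0.67 ± 0.28, 0.82 ± 0.12 and 0.47 ± 0.27.

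**Figure D3:**
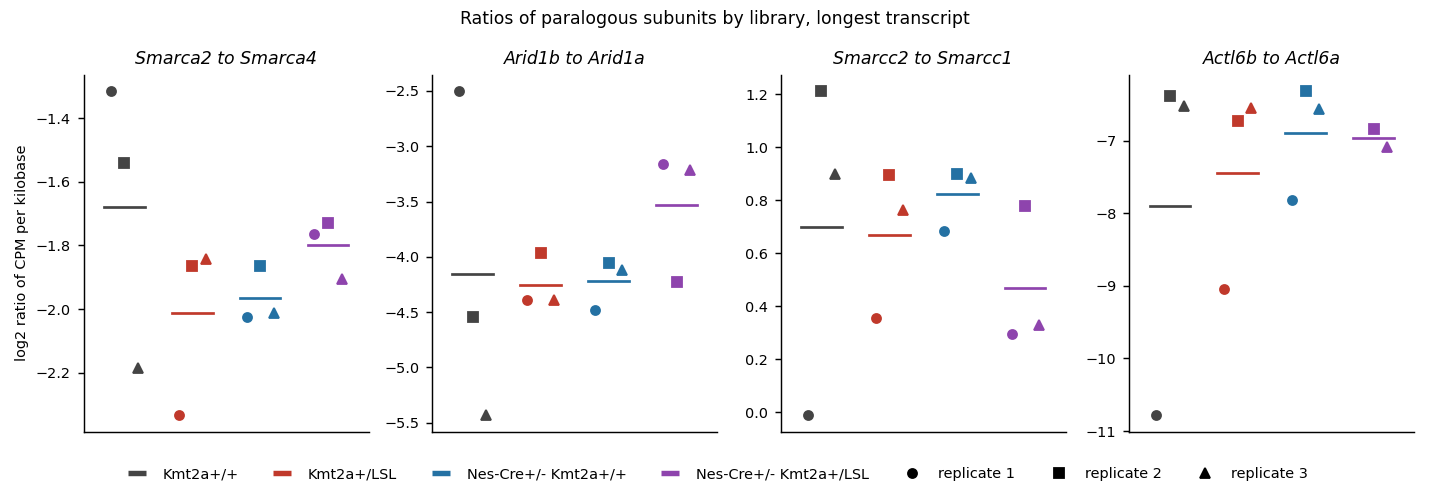
Log2 ratio of CPM per kilobase (longest transcript) for 4 pairs of paralogous subunits in each library. Symbols are replicates, lines the genotype means and colors the genotypes, and the Cre-LSL library with no *Actl6b* count has no point in that panel. *Arid1b* to *Arid1a* runs from −5.43 to −2.50, with both ends in wild-type.

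The question of whether any subunit gene varied over the 4 genotypes was put to edgeR's quasi-likelihood test with Benjamini-Hochberg adjustment over 17076 genes. No gene of any kind had an adjusted p under 0.05 (0% of all genes), so none of the 10 members did. *Kmt2a* itself was not called either, although its LSL libraries lay below every other library. The absence of a call therefore does not show that a gene was unchanged. At an unadjusted p under 0.05 the share was 1.15% of all genes and 0 of 10 members, whose smallest p was 0.398 (*Arid1b*). *Arid1b* had an unadjusted p of 0.00817 (adjusted p = 0.829) without wild-type replicate 1, 1 of 10 members against 5.35% of all genes.

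For LSL against wild-type, the effect of the cassette, 0 of 10 members had an adjusted p under 0.05, as did 0% of all genes. Of the 10 members 7 were lower and 3 higher, and a positive fold change was seen in 50.1% of all genes. At an unadjusted p under 0.05 the counts were 0 of 10 members and 1.79% of all genes, and no member had libraries of 1 genotype all above or all below the other, which 4.05% of all genes had. The lowest fold change was that of *Arid1b*, with log2 fold change −0.49 (SE 0.47, 95% CI −1.51 to 0.53), and the highest that of *Smarca4* at 0.10 (SE 0.23, 95% CI −0.41 to 0.61). Both directions turned without wild-type replicate 1, to 0.41 (SE 0.28) for *Arid1b* and −0.14 (SE 0.16) for *Smarca4*. *Arid1a* then had −0.30 (95% CI −0.56 to −0.05, edgeR unadjusted p = 0.0244, adjusted p = 0.551), 1 of 10 members where 8.95% of all genes had an unadjusted p under 0.05. The median absolute log2 fold change of the members was 0.125 (0.202 for all genes) with that library and 0.212 (0.258) without it.

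For Cre-LSL against LSL, which differ in nestin-Cre as well as in the state of the cassette, so that the effects of both cannot be told apart, 0 of 10 members had an adjusted p under 0.05 (0% of all genes). At an unadjusted p under 0.05 the counts were 0 of 10 members and 1.61% of all genes, and 0 members had non-overlapping libraries against 7.1% of all genes. Of the 10 members 5 were lower and 5 higher, with 50.4% of all genes higher. *Arid1b* was the highest, with log2 fold change 0.74 (SE 0.47, 95% CI −0.29 to 1.76, edgeR unadjusted p = 0.141), and *Actl6b* the lowest at −0.38 (95% CI −2.62 to 1.85). Of the 3 Cre-LSL libraries, replicates 1 and 3 lay above the LSL range of *Arid1b* and replicate 2 within it. Cre-LSL replicate 1 had the lowest limma-voom quality weight (lower for a library that varies more around its genotype) after wild-type replicate 1, 0.479, with 10.7% of its counts in its 10 most abundant genes and the second lowest level of *Sox2*, 232 CPM. Without that library the fold change of *Arid1b* was 0.65 (unadjusted p = 0.255, adjusted p = 1.00 in edgeR). Both genotypes of this comparison exclude wild-type, but the shared estimate of spread does not. Without wild-type replicate 1 the fold change of *Arid1b* was 0.72 (SE 0.24, unadjusted p = 0.0123, adjusted p = 1.00 in edgeR), where 3.89% of all genes passed an unadjusted p of 0.05. DESeq2 with an empirical null, similar to the test the study used, gave *Arid1b* an adjusted p of 0.0347 and called 945 genes (5.53%). The log2 fold change of *Arid1b* there was 0.75 (SE 0.49), and the plain DESeq2 Wald test did not call it. Over the 23 settings tried, its adjusted p ran from 0.0347 to 1.00.

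The remaining members had fold changes near 0 in that comparison. *Actl6a* had a log2 fold change of 0.00, with a 95% CI from −0.46 to 0.46. The 8 members other than *Arid1b* and *Actl6b* lay between −0.13 (*Smarcc2*) and 0.09 (*Smarca2*), and their confidence intervals together ran from −0.63 to 0.47. Changes within those intervals were not detectable here. The median absolute log2 fold change of all members was 0.0726, and 0.146 for all genes.

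For Cre-LSL against Cre-control, the recombined allele against its own Cre control, 0 of 10 members had an adjusted p under 0.05 (0% of all genes), 0 an unadjusted p under 0.05 (1.11%) and 0 non-overlapping libraries (6.68%). *Arid1b* was again highest with 0.62 (SE 0.47, 95% CI −0.40 to 1.64) and *Actl6b* lowest with −0.60 (95% CI −2.83 to 1.63), and 5 of 10 members were higher, with 50.9% of all genes. Over all settings tried, *Arid1b* ran from 0.36 to 0.85 and *Actl6b* from −1.11 to −0.04. This comparison shares the Cre-LSL libraries with the previous one, so the values of *Arid1b* in both are not independent. Without wild-type replicate 1 *Arid1b* had 0.61 (SE 0.24, unadjusted p = 0.0282, adjusted p = 1.00 in edgeR), where 3.23% of all genes passed an unadjusted p of 0.05. The other 8 members lay between −0.19 (*Smarcc2*) and 0.15 (*Smarcc1*).

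For Cre-control against wild-type, the effect of nestin-Cre alone, 0 of 10 members had an adjusted p under 0.05 (0% of all genes), 0 an unadjusted p under 0.05 (1.4%) and 0 non-overlapping libraries (4.35%). *Arid1b* had −0.37 (SE 0.47, 95% CI −1.39 to 0.65) and *Smarcc2* 0.09 (95% CI −0.38 to 0.55), the ends of the range, and 4 of 10 members were higher, with 52% of all genes. Without wild-type replicate 1 these became 0.53 and −0.13, so both turned their direction. How far the LSL effect on top of nestin-Cre differed from the LSL effect alone was tested as an interaction. This difference was highest for *Arid1b* at 1.11 (SE 0.66, 95% CI −0.33 to 2.55, edgeR unadjusted p = 0.119) and lowest for *Actl6b* at −0.43 (95% CI −3.55 to 2.69). No member had an adjusted p under 0.05 there (0% of all genes), and 0 of 10 an unadjusted one (1.73%), while 7 of 10 were above 0, as were 49.8% of all genes. For *Arid1b* it was 0.20 without wild-type replicate 1 (95% CI −0.60 to 1.00), and 0 of 10 members then had an unadjusted p under 0.05 (3.31% of all genes). Leaving out wild-type replicate 3 in its place gave *Arid1b* 1.48 (SE 0.54, edgeR unadjusted p = 0.0210, adjusted p = 0.792), 1 of 10 members where 4.06% of all genes passed. Its value was 0.06 in limma-voom and 1.68 with an offset for GC content, the lowest and highest of the settings tried. For Cre-control against wild-type, *Actl6a* had −0.46 without wild-type replicate 2 (SE 0.20, edgeR unadjusted p = 0.0425, adjusted p = 0.843), 1 of 10 where 4.45% of all genes passed.

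**Figure D4:**
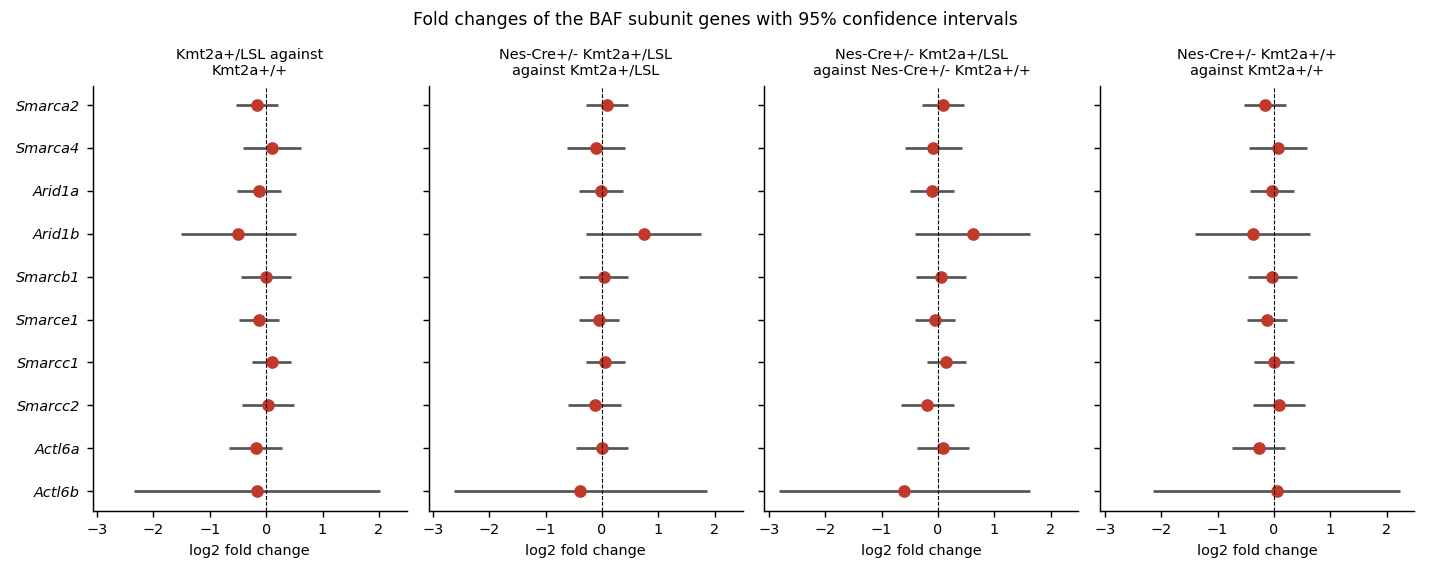
Log2 fold changes (points) with 95% confidence intervals (lines) of the 10 BAF subunit genes in 4 comparisons, from the edgeR fit of 12 libraries. Every interval crosses 0. Those of *Arid1b* and *Actl6b* are the widest, and *Arid1b* lies at −0.49, 0.74, 0.62 and −0.37 from left to right.

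The highest and lowest values of the members lay mostly in wild-type libraries. Wild-type replicate 1 was the highest library for 3 members (*Arid1b*, *Smarce1* and *Actl6a*) and the lowest for 4 (*Smarca4*, *Arid1a*, *Smarcb1* and *Smarcc2*), or 7 of 10 where 73.2% of all genes had it at an end. Wild-type replicate 3 was at an end for 5 members (33.5% of all genes) and replicate 2 for 4 (20.6%). The 4 members lowest in replicate 1 have a GC content of 49.3% to 56.7% in their longest transcript, and the 3 highest 52.9%, 39.1% and 49.1%. With an offset for GC content, chosen after seeing the data, *Arid1b* had −0.98 for LSL against wild-type and 0.80 for Cre-LSL against LSL, and its adjusted p stayed above 0.05. Under that offset *Arid1a* had −0.53 for LSL against wild-type (unadjusted p = 0.0459, adjusted p = 0.979 in edgeR, with 3.72% of all genes under an unadjusted 0.05). The difference of LSL effects for *Smarca2* was then 0.39 (unadjusted p = 0.0490, adjusted p = 1.00 in edgeR, with 2.88% of all genes). In limma-voom *Arid1a* had −0.25 for LSL against wild-type (unadjusted p = 0.0434, adjusted p = 0.647), where 7.68% of all genes passed.

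**Figure D5:**
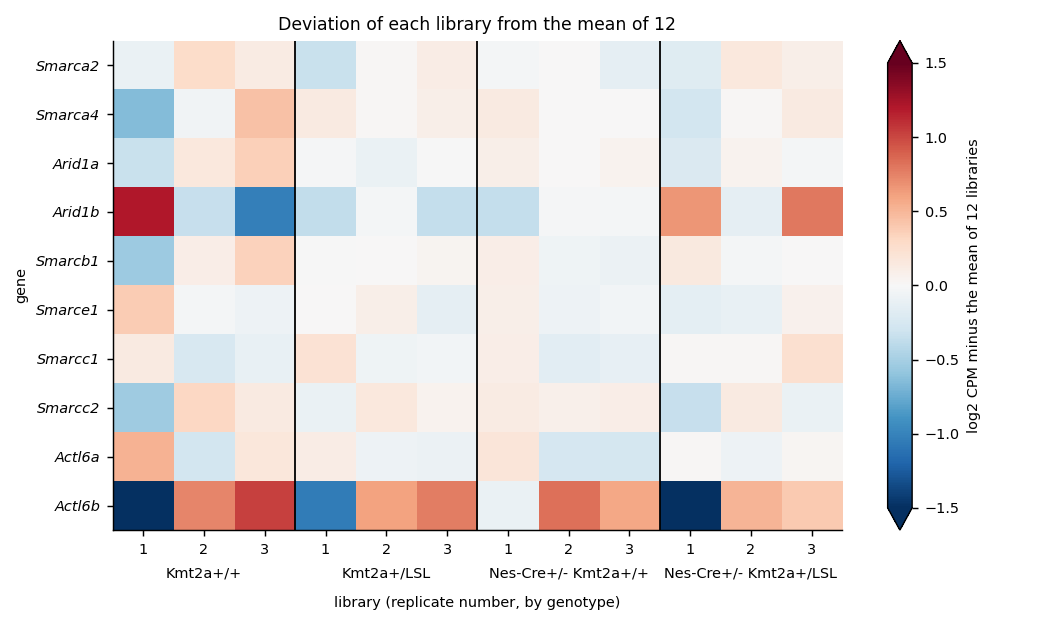
Log2 CPM of each member in each library minus its mean over 12 libraries, by genotype and replicate. Red is above and blue below the mean, and colors saturate at 1.5 in either direction. Wild-type replicate 1 is blue for *Smarca4*, *Smarcb1* and *Smarcc2* and red for *Arid1b*, *Smarce1* and *Actl6a*, and the *Actl6b* row follows single counts.

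Across the 12 libraries *Smarca4* and *Arid1a* rose and fell together (Pearson's r = 0.86 of log2 CPM, 0.78 without wild-type replicate 1), and *Arid1a* ran against its paralog *Arid1b* (r = −0.87, and −0.79 without that library). *Smarcb1* and *Smarce1*, both core subunits, had r = −0.73, which was −0.14 without it. *Smarca4* with *Smarcc2* had r = 0.72, and 0.36 without it. These are descriptions over libraries that differed in depth and in their relation to GC content, and the cause was not tested. The 5 genes whose pattern was most like that of *Actl6a*, of 11677 with a mean count of at least 50, were *Msh6* (r = 0.96), *Ipo9* (0.96), *Mcm4* (0.95), *Prim2* (0.95) and *Nsun2* (0.95). They kept r of 0.92, 0.92, 0.91, 0.89 and 0.92 without wild-type replicate 1. *Msh6* encodes a mismatch repair protein, *Mcm4* a subunit of the replicative helicase and *Prim2* a primase subunit. For *Actl6b* they were *Gm9803* (0.95), *Fcgrt* (0.93), *Pou3f3* (0.93), *Cbr1* (0.93) and *Fbxo41* (0.93), which follow a gene of at most 26 counts.

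The wider complex was examined through other subunits. Of 21 other BAF subunit genes, 0 had an adjusted p under 0.05 and 0 an unadjusted p under 0.05 in any of the 6 tests. With wild-type replicate 1 left out, 1 of 21 had an unadjusted p under 0.05 against wild-type, *Pbrm1*, in LSL (8.95% of all genes) and in Cre-control (6.09%), and 1 of 21, *Dpf3*, in Cre-LSL against Cre-control (3.23%). Among those that differ between progenitor and neuronal BAF, *Dpf3* measured 58.9, 54.2 and 62.0 CPM in Cre-LSL, above 49.6, 39.8 and 39.5 in Cre-control and 52.1, 45.0 and 52.3 in LSL. Its libraries did not overlap in either comparison (log2 fold change 0.44, SE 0.20, and 0.23, SE 0.20, two-sided exact permutation p = 0.1, the smallest that 3 against 3 allow), but wild-type replicate 1 read 68.5. *Dpf2*, its progenitor-stage counterpart, measured 115, 116 and 104 CPM in Cre-LSL, below 122 to 126 in both other genotypes (log2 fold change −0.15 in each, SE 0.23). With *Smarcd2*, 3 of 21 were non-overlapping against Cre-control (6.68% of all genes) and 2 of 21 against LSL (7.1%).

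*Ss18* and *Ss18l1*, the progenitor and neuronal forms of another exchanged subunit, had log2 fold changes of −0.10 and −0.10 for LSL against wild-type and −0.10 and −0.16 for Cre-LSL against LSL. *Phf10* (progenitor) had −0.22 and 0.05 and *Dpf1* (neuronal) 0.12 and 0.18. *Smarcd1* and *Smarcd3* had 0.43 and 0.46 for the first, where wild-type replicate 1 read 37.1 and 3.45 CPM and the other 2 wild-type libraries 175 and 194, and 65.8 and 64.1. Leaving that library out turned the values for LSL against wild-type to 0.10 for *Ss18*, 0.21 for *Phf10*, −0.17 for *Dpf1*, −0.02 for *Smarcd1* and −0.09 for *Smarcd3*, and *Ss18l1* had −0.16. *Smarcd3* shares 45.8% of its words of 31 bases, most of all with *Chpf2*. *Rest* measured 43.6 to 46.7 CPM in wild-type, 48.2 to 55.2 in LSL, 48.1 to 52.5 in Cre-control and 48.0 to 54.5 in Cre-LSL. Its wild-type libraries lay below those of every other genotype, as non-overlapping libraries did in either direction for 4.05% and 4.35% of all genes against LSL and Cre-control, with log2 fold changes of 0.18 and 0.16 (SE 0.14) for LSL and for Cre-control (0.17 and 0.15, SE 0.12, without wild-type replicate 1), and neither had an unadjusted p under 0.05.

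Of 17 ATPase genes of other remodeler families, 0 had an adjusted p under 0.05 in any test. For LSL against wild-type 15 of 17 were lower, with a median of −0.26 (0.00 for all genes). Leaving out wild-type replicate 1, 8 of 17 were lower, with a median of 0.05, and 7 of 17 had an unadjusted p under 0.05 (8.95% of all genes), with *Smarca5*, *Chd1*, *Hells*, *Smarcad1* and *Atrx* at positive and *Chd3* and *Chd5* at negative fold changes and an adjusted p of 0.551 each in edgeR. For Cre-control against the same 2 wild-type libraries, 5 of 17 had an unadjusted p under 0.05 (6.09% of all genes), with *Smarcad1* at 0.51, *Atrx* at 0.44, *Smarca5* at 0.37, *Chd1* at 0.29 and *Chd5* at −0.80, and an adjusted p of 0.733 each in edgeR. GC content of the longest transcript was 37.7% for *Hells*, 39.5% for *Atrx*, 40.7% for *Smarca5*, 41.1% for *Smarcad1* and 43.2% for *Chd1*. It was 56.1% for *Chd3* and 57.4% for *Chd5*. Deviations of these 2 wild-type libraries ran with GC content at rho 0.47 and 0.79. Whether this relation accounts for the fold changes was not tested. *Chd8*, an autism-associated remodeler, measured 150, 120 and 114 CPM in wild-type and 97.8, 106 and 79.8 in LSL (log2 fold change −0.44, SE 0.19, edgeR unadjusted p = 0.0447, 1 of 17 against 1.79% of all genes), and the interaction was 0.65 (SE 0.27, unadjusted p = 0.0355, 1 of 17 against 1.73%). In neither did *Chd8* keep an unadjusted p under 0.05 without wild-type replicate 1, with −0.31 (SE 0.18, edgeR unadjusted p = 0.116) and 0.52 (SE 0.24, unadjusted p = 0.0560). Its LSL and its Cre-control libraries lay below those of wild-type, where 4.05% and 4.35% of all genes had non-overlapping libraries in either direction, and the fold change for Cre-control was −0.30 (SE 0.19), and −0.18 (SE 0.18) without that library.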

How the data were processed

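Poly(A) RNA of 12 mNPC cultures was sequenced. Per the labels and the study's methods, the authors pseudoaligned reads with kallisto 0.48.0 to the mm10 (GRCm38) transcriptome and summed transcripts to genes with tximport and biomaRt. What the authors deposited is a table of estimated counts for each gene, in whole numbers and not normalized. It was used as it is, although tests had been planned for counts. Genotypes came from the labels. Of 18911 genes 18735 matched a GRCm38 symbol (GENCODE M21).

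The test covered 17076 genes whose counts summed to over 10 and were above 0 in 2 or more libraries. They were fitted in R 4.3.3 with edgeR 4.0.16 (TMM, quasi-likelihood F-test, genotype as the only term, all 12 libraries) and called at a Benjamini-Hochberg adjusted p under 0.05. CPM are counts over TMM-scaled library sizes, and log2 CPM used a prior count of 2. Intervals are 95%. The alternatives were DESeq2 1.42.0, limma-voom 3.58.1, other filters and genotypes, transcript length and GC offsets (the latter chosen after seeing the data), a replicate block and each library left out. The empirical null stands in for the study's fdrtool step and is not the same procedure. It fits the width of the null by maximum likelihood to the central 75% of absolute z-scores, followed by Benjamini-Hochberg adjustment. The study used fdrtool with its own q-values. The members, lists and rules were chosen with earlier results of these data known. All members were named. Fold changes are printed for the lowest and highest member of each comparison and for those with an unadjusted p under 0.05 or non-overlapping libraries, and ranges cover the rest. Of other genes, the subunits that differ between progenitor and neuronal BAF, *Rest*, those with an unadjusted p under 0.05 and the 5 most correlated with *Actl6a* or *Actl6b* are named. The values of *Smarcd2*, *Pbrm1*, other ATPases than *Chd8*, and of *Arid1a* and *Actl6a* beyond that rule, were chosen after they were seen.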

Additional observations from a re-analysis of the deposited data

How the results depend on the processing

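No member passed an adjusted p of 0.05 in any of the 6 tests under edgeR with DESeq2 size factors, the DESeq2 Wald test, limma-voom, no filter, at least 10 counts in every library, a length or GC offset, other genotypes in the fit or any library left out, and the empirical null called 1 member, *Arid1b*, for Cre-LSL against LSL. In the order LSL against wild-type, Cre-LSL against LSL, Cre-LSL against Cre-control, Cre-control against wild-type and the difference of LSL effects, where edgeR called 0 genes, the DESeq2 Wald test called 7, 7, 3, 3 and 10 and the empirical null 32, 945, 261, 7 and 17. Over the 4 genotypes DESeq2's likelihood ratio test called 5. Limma-voom called 3 over the 4 genotypes and 2 in each of the first 2 comparisons, and the GC offset called 1 in each of these 3. With a library left out, the ranges were 0 to 3, 0 to 2 and 0 to 1, and the highest count came without wild-type replicate 1. The counts of members with an unadjusted p under 0.05 ranged from 0 to 1 in each test.

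Over all settings the fold change took both signs for 9, 7, 3, 8 and 7 of 10 members in the order above. Of those printed as the lowest or highest member of a comparison, the ones that changed direction were *Arid1b* for LSL against wild-type (0.30 in limma-voom, 0.41 without wild-type replicate 1, range −0.87 to 0.41 with a library left out) and for Cre-control against wild-type (0.48 and 0.53, range −0.75 to 0.53). *Smarca4* for LSL against wild-type had −0.011 in limma-voom, −0.17 with the GC offset and −0.14 without that library (−0.14 to 0.40). *Smarcc2* for Cre-control against wild-type had −0.14 in limma-voom, −0.011 with the length offset, −0.14 with the GC offset and −0.13 without it (−0.13 to 0.26). *Actl6b* for Cre-LSL against LSL had 0.17 without Cre-LSL replicate 1 (−0.86 to 0.17), and its difference of LSL effects 0.023 in limma-voom, 0.06 without wild-type replicate 1 and 0.13 without Cre-LSL replicate 1 (−0.92 to 0.13). The cause was not tested.

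Levels in CPM per kilobase moved with the gene length. Over the longest transcript and over merged exons they were 17.8 and 7.38 for *Smarca2*, 15.4 and 14.4 for *Smarcb1*, 33.9 and 24.98 for *Smarcc1*, 23.8 and 12.3 for *Actl6a* and 0.16 and 0.12 for *Actl6b*, and over merged exons 22.8 for *Arid1a*, 21.9 for *Smarce1* and 44.5 for *Smarcc2*. The log2 ratio of *Smarca2* to *Smarca4* became −1.86 and −3.11, that of *Smarcc2* to *Smarcc1* 0.67 and 0.82, and that of *Actl6b* to *Actl6a* −7.33 over the longest transcript. These follow from the lengths themselves.

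Same-numbered libraries of different genotypes had a mean correlation of deviations of 0.08 (18 pairs, 5 above 0.1) and differently numbered ones of −0.04 (36 pairs, 4 above 0.1). All 3 same-numbered pairs of wild-type and Cre-LSL lay above 0.1, at 0.42, 0.29 and 0.14. These genotypes enter the test over 4 genotypes and the interaction together. Same-numbered pairs of wild-type and LSL had 0.14, 0.05 and 0.22, and no other same-numbered pair lay above 0.1. The labels do not say whether the numbers pair the libraries, and the main fit did not pair them. With the replicate number as a block edgeR called 0 genes and 0 members in every test, and the fold change of *Arid1b* for Cre-LSL against LSL was 0.70. Depth limits *Actl6b* (0 to 26 counts). *Smarce1* and *Actl6a* share sequence with other genes.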
